A study of Homo sapiens with 8 samples.

Results

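NKX2-1 is a homeobox factor whose best known direct targets are the surfactant genes of the lung and the hormone genes of the thyroid. The 9 genes described here are such targets, taken by symbol from the deposited table of 61228 gene symbols: SFTPB, SFTPC, NAPSA, ABCA3, LPCAT1 and SCGB3A2 from lung, and TG, TSHR and PAX8 from thyroid. All 9 symbols were in the table. The samples were clones of RPMI-8402, a line of T-cell acute lymphoblastic leukaemia, grown without treatment. The labels put C12, C15, S04 and S36 in the NKX2-1 knockout group and WT10, WT13, WT28 and WT30 in the wild-type group, so that each group had 4 clones with 1 library each. The kind of edit is not given, and neither is the meaning of the letters C and S. Each library is 1 clone, so the spread within a group holds differences between clones.

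In the lung, NKX2-1 acts in alveolar type 2 and club cells, together with partners such as FOXA1, FOXA2, GATA6, CEBPA and WWTR1. Alveolar type 2 cells make surfactant, a film of phosphatidylcholine and small hydrophobic proteins that keeps air spaces open. In thyroid follicular cells NKX2-1 acts with PAX8 and FOXE1 on the genes for thyroglobulin and the thyrotropin receptor. T cells are not a normal site of NKX2-1, and the data ask which of the epithelial targets are read there at all, and whether their levels differ between knockout and wild-type clones.

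The word that NKX2-1 binds in lung and thyroid promoters is built round CAAG. Of the RefSeq promoters, each the 250 bases before an annotated start on GRCh38.p14, 3 are shown. SCGB3A2 and NAPSA are the 2 with a match to a searched form of the word, and LPCAT1 is the gene with the most reads and no match. The search covered CTCAAG, its neighbour by 1 base TCAAGT, and further along the same site CAAGTG, on both strands, so the words overlap one another. Capitals mark the matched bases, and the sequences run 5′ to 3′ on the strand of the gene.
SCGB3A2, chr5:147878461-147878710, plus strand: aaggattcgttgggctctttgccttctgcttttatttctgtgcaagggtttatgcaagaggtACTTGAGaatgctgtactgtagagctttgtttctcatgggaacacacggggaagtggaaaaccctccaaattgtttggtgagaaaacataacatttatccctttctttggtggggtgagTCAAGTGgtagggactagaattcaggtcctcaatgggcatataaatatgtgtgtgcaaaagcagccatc
NAPSA, upstream one of its 2 starts, chr19:50369303-50369552, minus strand: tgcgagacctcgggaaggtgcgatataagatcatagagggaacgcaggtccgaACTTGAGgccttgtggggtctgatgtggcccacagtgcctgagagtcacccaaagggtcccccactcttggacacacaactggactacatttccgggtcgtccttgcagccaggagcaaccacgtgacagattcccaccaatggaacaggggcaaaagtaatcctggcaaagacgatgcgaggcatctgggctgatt
LPCAT1, chr5:1523961-1524210, minus strand: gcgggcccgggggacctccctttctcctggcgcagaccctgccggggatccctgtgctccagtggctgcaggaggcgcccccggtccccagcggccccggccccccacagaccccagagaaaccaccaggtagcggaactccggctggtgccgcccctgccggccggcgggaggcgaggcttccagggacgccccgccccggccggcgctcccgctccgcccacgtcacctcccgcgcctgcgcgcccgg
SCGB3A2 held 4 overlapping matches in 2 places, at -188 to -182 and at -69 to -63 counted from the start. NAPSA held 2 overlapping matches in 1 place, at -197 to -191 counted from that start, and its other start, at chr19:50365640-50365889, held none. Of the 2 starts of NKX2-1 itself 1 held a single match, CAAGTG. Any of the words was present in 21.5% of 35116 promoters of the same length, and 3 or more matches in 1.45%. Promoters were found for 7 of the 9 genes. Those of SFTPB, PAX8, TSHR and ABCA3 also held none of these 3 words in this window. CAAG alone was not searched for, and it occurs, for example, in the windows of TSHR, ABCA3 and the downstream start of SFTPB. CpG dinucleotides numbered 38 in ABCA3, 28 in LPCAT1, 11 in PAX8, 7 in TSHR and 2 in SCGB3A2, where the median promoter had 11. At their 2 starts SFTPB had 1 and 3, and NAPSA had 10 and 3. A match is a run of letters and no measure of binding.

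NKX2-1 was read in all clones, and its classical targets hardly at all. All 9 genes together held 171 of 55838183 counts in knockout clones and 243 of 83093859 counts in wild-type clones. By clone their summed level was 2.73 to 3.36 CPM in knockout clones and 2.25 to 3.67 CPM in wild-type clones, so the groups overlapped. SFTPC, the surfactant protein made only by alveolar type 2 cells, and SCGB3A2, a club cell secretoglobin, had 0 counts in all 8 clones. By counting alone a 0 allows up to 3 counts, which is 0.0516 CPM in pooled knockout clones and 0.0367 CPM in pooled wild-type clones. CPM stands for counts relative to a fixed library size, with totals scaled by TMM. NAPSA had 0 counts in knockout clones and 4 in wild-type clones, and ABCA3 had 7 in knockout clones and 5 in wild-type clones. Only LPCAT1, TSHR and PAX8 had enough reads to be tested. None of the 3 passed the threshold in knockout against wild-type clones, where 0.316% of 14243 tested genes did. On simulated counts this comparison recovered 30.6% of planted 2-fold changes, so missing the threshold does not show equal levels.

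**Figure D1:**
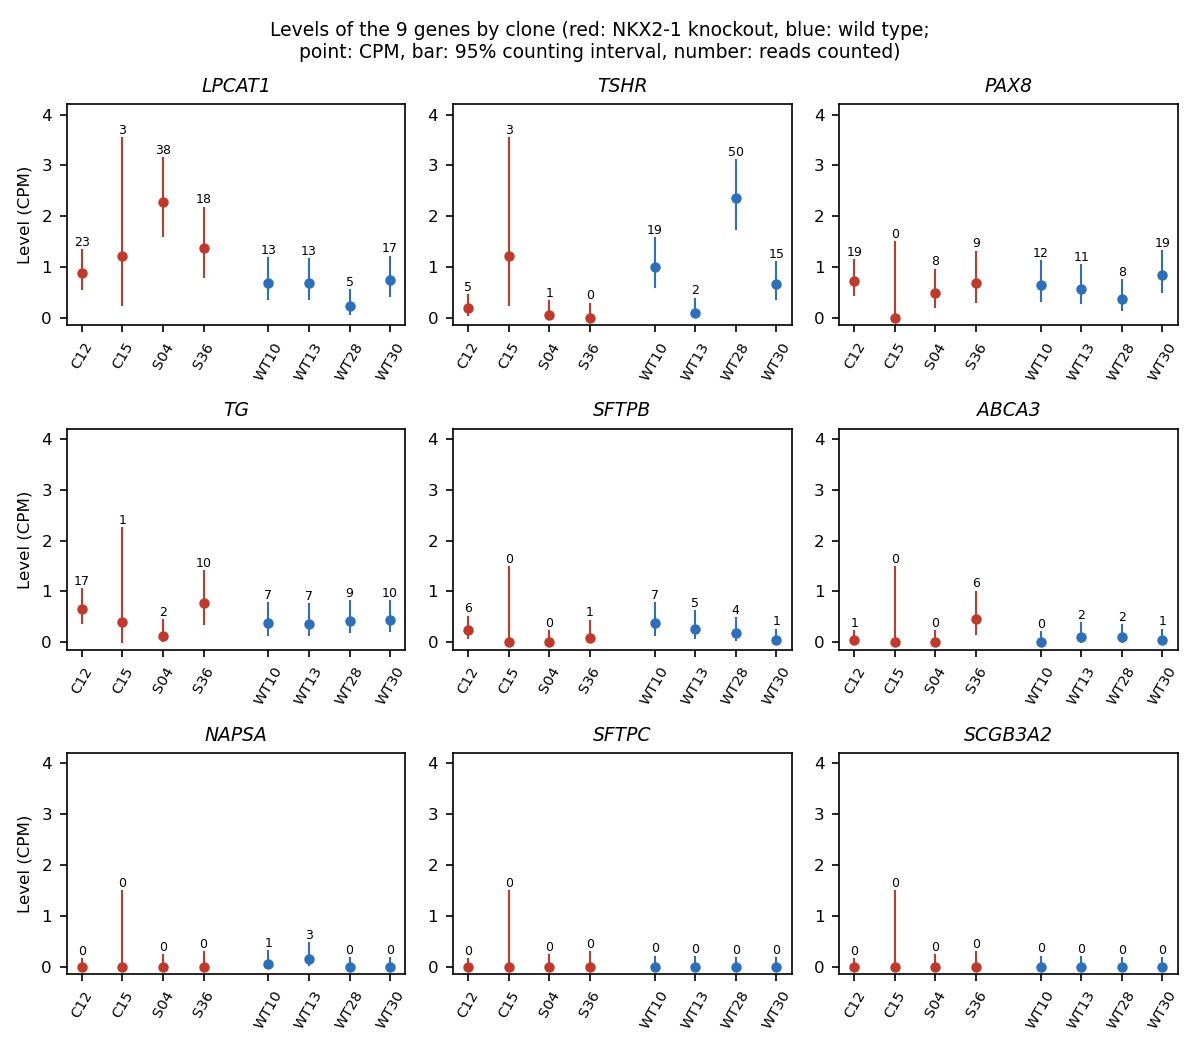
Level in CPM of each of the 9 genes in the 4 knockout clones (red, left) and the 4 wild-type clones (blue, right), with exact 95% Poisson intervals as bars and the number of reads above each bar. LPCAT1 sits between 0.886 and 2.29 CPM in knockout clones, all above the wild-type clones, while SFTPC and SCGB3A2 have no read in any clone.

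Library totals were 2730285 to 25423215 counts in knockout clones and 18453947 to 22916424 in wild-type clones. C15 was the shallowest, and 3 counts in it amount to 1.21 CPM, against 0.116 to 0.229 CPM in the other knockout clones and 0.133 to 0.159 CPM in wild-type clones. Mitochondrial transcripts took 14.8% to 21.2% of counts in knockout clones and 12.9% to 15.1% in wild-type clones. All 12 markers of the T lineage were tested, none past the threshold, with summed levels of 1799 to 2217 CPM in knockout clones and 1862 to 2277 CPM in wild-type clones. The sum is mostly CD3D, CD3G, LCK and CD3E and hides the lower markers. For 2 of the 12 the groups did not overlap, both lower in knockout clones, as groups did not in 10.1% of all tested genes. None of 10 epithelial markers passed the filter. Their sum was 0.403 to 1.33 CPM in knockout clones and 0.424 to 1.10 CPM in wild-type clones, with EPCAM, KRT7, KRT19 and GRHL2 at 0 throughout. Of 6 fibroblast markers 1, COL1A1, was tested. COL1A2, COL3A1, LUM and PDGFRA had 0 counts in all clones, and DCN had 5 in all. The sum of the 6, nearly all of it COL1A1, was 6.18 to 13.9 CPM in knockout clones and 12.7 to 20.03 CPM in wild-type clones.

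A low count in the table has a further limit. Some genes that nearly all cells use were also at or near 0, as a look at 10 of them, picked after the values were seen, shows. MIF and AGPAT1 had 0 counts in all clones. TUBB, a beta-tubulin, had 2 counts in all and TSEN34, a tRNA splicing subunit, had 11. GAPDH, a glycolytic enzyme, stood at 35.8 CPM in pooled knockout clones and 18.1 CPM in pooled wild-type clones, where ACTB stood at 661 CPM in knockout clones and 621 CPM in wild-type clones. Whether reads of the 9 genes were lost in the same way was not tested, so a 0 here says only that no read was assigned to the gene.

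NKX2-1 itself checks the labels only in part. It had 1866, 28, 1385 and 437 counts in C12, C15, S04 and S36, and 1060, 1205, 1136 and 1223 counts in WT10, WT13, WT28 and WT30. As levels these are 71.9, 11.3, 83.5 and 33.3 CPM in knockout clones and 53.5 to 63.1 CPM in wild-type clones. C12 and S04 were above all wild-type clones, and C15 and S36 were below them. By edgeR it differed by -0.15 in log2 (SE 0.42) at an adjusted p of 0.905, and a read count does not show an edit that leaves the mRNA in place. NKX2-1 lies on chromosome 14 from 36516392 to 36521149, minus strand, and the antisense gene NKX2-1-AS1 shares 402 of its exon bases.

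Set against one another per length, NKX2-1 stood far above all 9 genes. Per kb of principal transcript it was at 30.7, 4.83, 35.7 and 14.3 CPM in C12, C15, S04 and S36. Wild-type clones were at 22.9 to 27.0 CPM per kb. Its pooled level, in which deeper libraries weigh more, was 27.3 CPM per kb in knockout clones and 24.2 in wild-type clones. In wild-type clones this was 103 times the level of TSHR, 163 times that of LPCAT1 and of PAX8, 217 times that of SFTPB, 506 times that of TG, 765 times that of NAPSA and 2614 times that of ABCA3. The pooled level of TSHR rests mostly on WT28, with 50 of its 86 wild-type reads. Per kb TSHR was above LPCAT1 in WT10 and WT28 and below it in WT13 and WT30. By the same scale 87.7% of 19831 protein-coding genes lay below NKX2-1 in wild-type clones, while 46.5% lay below TSHR, 44.1% below LPCAT1 and PAX8, 42.7% below SFTPB, 38.7% below TG, 36.6% below NAPSA and 30.6% below ABCA3. For comparison, 25.8% of coding genes had no count in wild-type clones. In this order the 95% counting intervals of each pair of neighbours among the 7 genes overlapped.

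**Figure D2:**
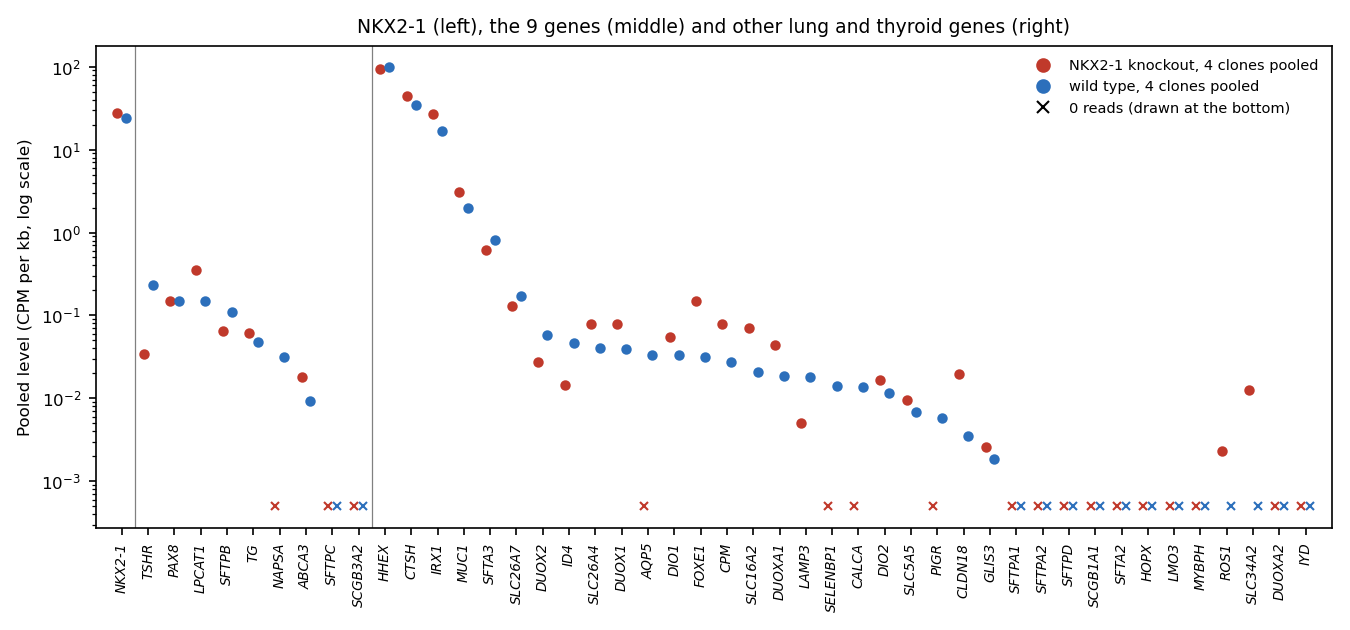
Pooled level per kb of principal transcript on a log axis, with knockout clones in red left of wild-type clones in blue, and crosses for genes with no read. NKX2-1 lies at 27.3 and 24.2 CPM per kb, the 9 genes between 0 and 0.356, and among other lung and thyroid genes HHEX, CTSH and IRX1 lie highest. Pooling gives deeper libraries more weight.

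LPCAT1 was the gene of the 9 with the most reads. It encodes an acyltransferase of the endoplasmic reticulum that makes the dipalmitoyl phosphatidylcholine of surfactant and also acts in other tissues. It lies on chromosome 5 from 1456480 to 1523977, minus strand, in 19 merged exon blocks. It had 23, 3, 38 and 18 counts in C12, C15, S04 and S36, which is 0.886, 1.21, 2.29 and 1.37 CPM. In WT10, WT13, WT28 and WT30 it had 13, 13, 5 and 17 counts, which is 0.691, 0.681, 0.235 and 0.753 CPM. S04 was highest of all clones, WT28 was lowest, and the lowest knockout clone lay just above the highest wild-type clone. The mean was 1.44 ± 0.602 CPM in knockout clones and 0.590 ± 0.239 CPM in wild-type clones (SD, n = 4 each). The log2 fold change was 1.30 (SE 0.46) with an unadjusted p of 0.0169 and an edgeR adjusted p of 0.218 over all tested genes.

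At an unadjusted p under 0.05 stood 15.5% of all tested genes, and LPCAT1 and TSHR of the 3 tested here. Groups that did not overlap were found for 10.1% of all tested genes, and for LPCAT1 of these 3. An exact two-sided permutation test of the log2 CPM of LPCAT1 gave p = 0.0286, the smallest that 70 assignments of the clones can give. Pooled counts differed 2.40-fold, with an exact 95% interval of 1.66 to 3.50 that covers counting error only. The wild-type clone WT28 stood apart, and without it the log2 fold change was 1.03, while without S04 it was 0.93 with an edgeR adjusted p of 0.409. With libraries thinned by a single random draw to the depth of C15, the mean log2 CPM of LPCAT1 differed by -0.025. Other draws were not made, so this value does not show what that depth can detect.

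The LPCAT family gives LPCAT1 some context, since its members carry out the same reacylation step on different lipids. Per length LPCAT2, the enzyme of inflammatory cells that also makes platelet-activating factor, held the largest share of the summed level of the family in every clone, at 47.3% to 74.9% in knockout clones and 61.6% to 72.1% in wild-type clones. LPCAT1 held 11.7%, 16.2%, 17.2% and 21.4% in C12, C15, S04 and S36. Its share was 10.9%, 8.74%, 6.20% and 10.5% in WT10, WT13, WT28 and WT30. LPCAT4 had 5 counts in all clones together. LPCAT2 itself was at a log2 fold change of 0.45 (SE 0.36) and LPCAT3, which builds arachidonate into membranes, at -0.03 (SE 0.42).

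Of the 9 genes LPCAT1 alone had a mean level of at least 1 CPM, so a search for genes with a like pattern was made only for it. Over the 8 clones and 12632 genes, Pearson correlation of log2 CPM was highest for BMP2K, a kinase gene (0.975), DHX8, an RNA helicase gene of the spliceosome (0.973), and GUCY1B1, a subunit of soluble guanylate cyclase (0.970). BMP2K had 27.8, 31.8, 40.5 and 33.3 CPM in C12, C15, S04 and S36, and 27.2, 24.3, 21.0 and 27.4 CPM in WT10, WT13, WT28 and WT30. As for LPCAT1, S04 was highest and WT28 lowest. The 8 points share their libraries and their scaling, and the highest of so many correlations is high by selection.

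TSHR, the G protein-coupled receptor for thyrotropin, varied widely among wild-type clones. It lies on chromosome 14 from 80954989 to 81146302, plus strand. It had 5, 3, 1 and 0 counts in C12, C15, S04 and S36, which is 0.193, 1.21, 0.060 and 0 CPM. In WT10, WT13, WT28 and WT30 it had 19, 2, 50 and 15 counts, which is 1.01, 0.105, 2.35 and 0.665 CPM. The groups overlapped: C15, with its 3 reads, lay above 3 of the wild-type clones, and WT13 lay below C12. Within the wild-type group the highest clone was 22.5 times the lowest, and the exact 95% Poisson interval was 1.75 to 3.10 CPM in WT28 and 0.0127 to 0.378 CPM in WT13. The mean was 0.365 ± 0.568 CPM in knockout clones and 1.03 ± 0.957 CPM in wild-type clones (SD, n = 4 each). By edgeR TSHR differed by -2.58 in log2 (SE 1.05), with an unadjusted p of 0.0320 and an adjusted p of 0.279. Exact permutation gave p = 0.229. Without WT28, which holds most of the wild-type reads, the log2 difference was -1.76. In these bulk libraries fewer cells with the transcript and less transcript per cell cannot be told apart.

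TSHR couples to the G protein alpha subunit encoded by GNAS, to adenylate cyclases and to protein kinase A. Of 28 genes of this pathway 18 were tested and none passed the threshold, with 10 above and 8 below 0 and a median log2 fold change of 0.0055, where the median of all tested genes was 0.02. GNAS had the smallest p. It stood at 635, 252, 415 and 354 CPM in C12, C15, S04 and S36, and at 712, 786, 818 and 654 CPM in WT10, WT13, WT28 and WT30. The groups did not overlap, as was found for 10.1% of all tested genes. The log2 fold change of GNAS was -0.84, with an SE of 0.24 and an adjusted p of 0.160 by edgeR. Expressed genes within 10 Mb of GNAS on chromosome 20 had median log2 differences from the wild-type mean of -0.33, 0.05, -0.51 and -0.50 in C12, C15, S04 and S36, and their part in the difference of GNAS was not tested. PRKAR2A, a regulatory subunit of protein kinase A, was at 1.03 (SE 0.42, edgeR adjusted p = 0.284) and ADCY3, a cyclase, at -1.14 (SE 0.61, 0.396). The hormone chains CGA, GPHA2 and GPHB5 had no reads, and TSHB had 25 in all clones.

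PAX8, the paired box factor of thyroid and kidney that works beside NKX2-1 on thyroid promoters, did not differ detectably between the groups. It lies on chromosome 2 from 113215997 to 113278950, minus strand. It had 19, 0, 8 and 9 counts in C12, C15, S04 and S36, which is 0.732, 0, 0.482 and 0.686 CPM. In WT10, WT13, WT28 and WT30 it had 12, 11, 8 and 19 counts, which is 0.637, 0.576, 0.377 and 0.842 CPM. The 7 deeper libraries lay between 0.377 and 0.842 CPM with the groups intermixed, and the 0 in C15 is set against an expectation of 1.52 counts at the pooled wild-type level. By edgeR it differed by -0.08 in log2 (SE 0.49) at an adjusted p of 0.965, and pooled counts gave a ratio of 1.01 with an exact 95% interval of 0.640 to 1.58. Its sign turned without C15 (0.06), without S04 (0.02) or without WT30 (0.10). The antisense gene PAX8-AS1 shares 9.26% of the exon bases of PAX8 and had 1 count in all clones. Of 8 other PAX genes 2 were tested, PAX6 at -0.52 (SE 0.25, edgeR adjusted p = 0.346) and PAX9, a neighbour of NKX2-1 on chromosome 14, at 0.31 (SE 0.33, 0.694).

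**Figure D3:**
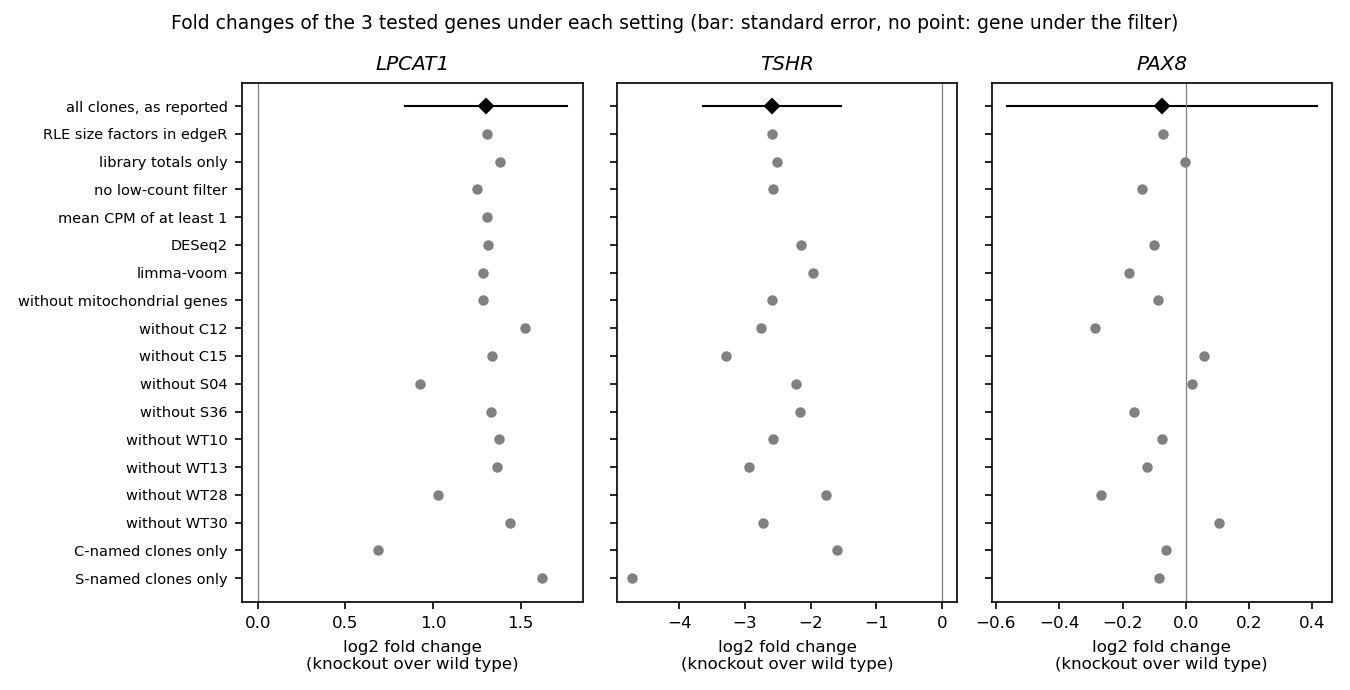
The log2 fold changes, knockout over wild type, of LPCAT1, TSHR and PAX8 with all clones (diamond, bar for the standard error) and under each other setting (grey points). LPCAT1 stays between 0.69 and 1.62 and TSHR between -4.72 and -1.59, while PAX8 lies on both sides of 0.

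TG encodes thyroglobulin, the large protein from which thyroid hormone is cut, and was hardly read here. It lies on chromosome 8 from 132866958 to 133134903, plus strand. It had 17, 1, 2 and 10 counts in C12, C15, S04 and S36, and 7, 7, 9 and 10 counts in WT10, WT13, WT28 and WT30. The level was 0.655, 0.403, 0.121 and 0.763 CPM in those knockout clones and 0.372, 0.367, 0.424 and 0.443 CPM in those wild-type clones. Knockout clones thus lay on both sides of wild-type clones, which were within 1.21-fold of one another. An exact permutation test gave p = 0.943. The gene did not pass the filter on low counts. SLA, a lymphocyte adaptor gene, lies in TG on the opposite strand without sharing exon bases and had 53 to 1551 counts in knockout clones and 1035 to 2027 in wild-type clones. The part of SLA reads in the TG counts was not tested.

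Among the genes of surfactant proper, SFTPB was the only protein with reads. SFTPB, a saposin-like protein that spreads the lipid film, lies on chromosome 2 from 85657314 to 85668741, minus strand. It had 6, 0, 0 and 1 counts in C12, C15, S04 and S36, and 7, 5, 4 and 1 counts in WT10, WT13, WT28 and WT30. It was seen in 2 of 4 knockout clones and 4 of 4 wild-type clones, and the ranges of 0 to 0.231 CPM in knockout clones and 0.044 to 0.372 CPM in wild-type clones overlapped. Pooled counts gave a ratio of 0.579 with an exact 95% interval of 0.203 to 1.47, and an exact permutation test gave p = 0.171.

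ABCA3 carries phospholipid into the lamellar bodies of type 2 cells and lies on chromosome 16 from 2275881 to 2340746, minus strand. It had 1, 0, 0 and 6 counts in C12, C15, S04 and S36, and 0, 2, 2 and 1 counts in WT10, WT13, WT28 and WT30. S36 was the single clone above 3 counts, at 0.458 CPM. NAPSA, the aspartic protease that cuts the SFTPB and SFTPC precursors, lies on chromosome 19 from 50358477 to 50365830, minus strand, inside the span of NR1H2. It had no count in knockout clones, and 1, 3, 0 and 0 counts in WT10, WT13, WT28 and WT30. By counting alone the limit on NAPSA in pooled knockout clones is 0.0516 CPM and its pooled level in wild-type clones was 0.0490 CPM, so no difference was detectable at this depth. SFTPC lies on chromosome 8 from 22156913 to 22164479, plus strand, and SCGB3A2 on chromosome 5 from 147870682 to 147882191, plus strand. SCGB3A2, whose promoter held the most matches to the NKX2-1 words among the 7 searched, had no read.

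Most of the wider lung list was as thinly read. Of 20 other lung genes tied to NKX2-1, 8 had no count in any clone, among them SFTPA1, SFTPA2, SFTPD, SCGB1A1 and HOPX, and 4 were tested. None passed the threshold, 3 were above 0 and 1 below, and their median was 0.39. IRX1, an Iroquois homeobox gene, stood at 46.5, 58.0, 46.3 and 59.3 CPM in C12, C15, S04 and S36, and at 27.6, 35.9, 32.7 and 29.7 CPM in WT10, WT13, WT28 and WT30. All knockout clones lay above all wild-type clones, and in 10.1% of all tested genes the groups did not overlap. The log2 fold change of IRX1 was 0.73, with an SE of 0.15 and an adjusted p of 0.0873 by edgeR. Expressed genes within 10 Mb of IRX1 had median differences of 0.04, -0.08, -0.0034 and 0.34 in C12, C15, S04 and S36. The median was highest in S36, and the part of the region in the difference of IRX1 was not tested. The antisense gene AC016595.1 of the annotation shares 20.6% of the exon bases of IRX1. MUC1, a mucin, was at 0.57 (SE 0.32, edgeR adjusted p = 0.418) and SFTA3, next to NKX2-1 on chromosome 14, at -0.44 (SE 0.33, 0.563). Of 8 other secretoglobins none was tested and 6 had no read.

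Among 17 other thyroid genes 2 had no read and 3 were tested, none past the threshold. HHEX, a homeobox gene of thyroid and blood, stood at 149 ± 38.0 CPM in knockout clones and 170 ± 17.8 CPM in wild-type clones (SD, n = 4 each), at a log2 fold change of -0.18, with an SE of 0.19 and an adjusted p of 0.682 by edgeR. SLC26A7, an anion transporter of thyroid and kidney, was at -0.18 (SE 0.64, 0.928).

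**Figure D4:**
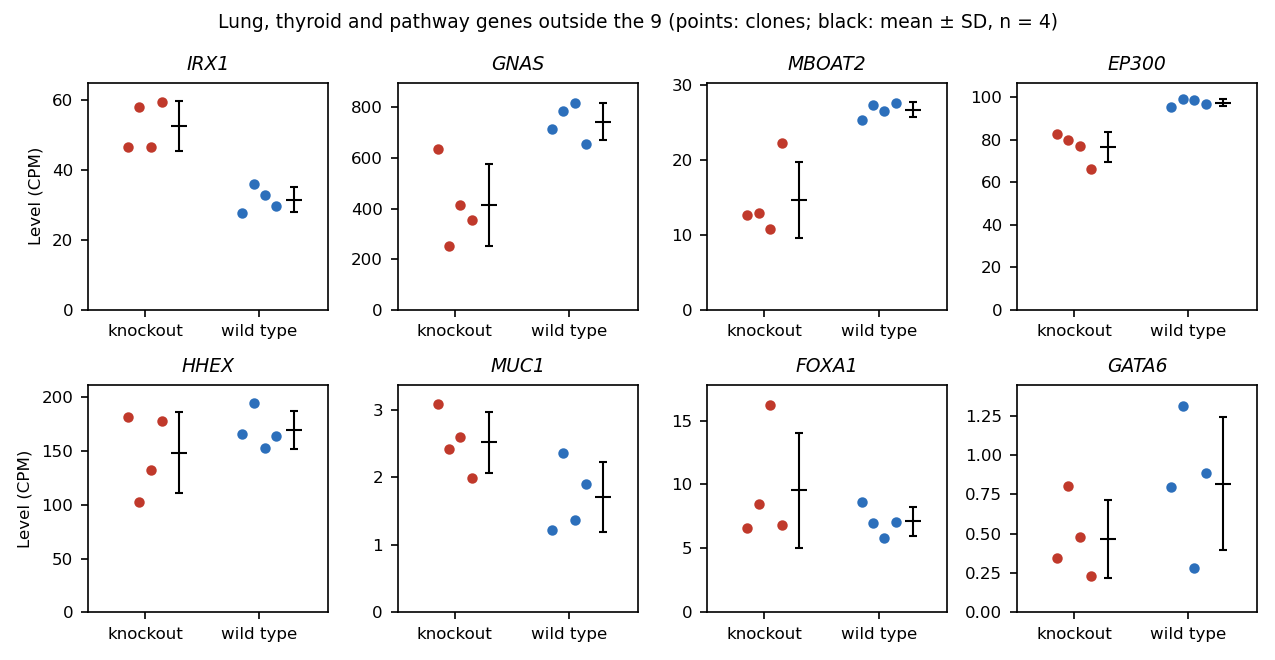
Level in CPM of 8 genes outside the 9 in knockout clones (left, red) and wild-type clones (right, blue), with the mean and SD of 4 clones in black. The groups are apart for IRX1, GNAS, MBOAT2 and EP300, each picked for the smallest p of its list, and overlap for HHEX, MUC1, FOXA1 and GATA6. Of all tested genes 10.1% have groups that do not overlap.

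The partners that NKX2-1 has in lung and thyroid were present in part. Of 30 such genes 16 were tested and none passed the threshold, with 7 above and 9 below 0 and a median of -0.02. The pioneer factor FOXA1 was read at 9.54 ± 4.52 CPM in knockout clones and 7.13 ± 1.13 CPM in wild-type clones (SD, n = 4 each). GATA6 was read at 0.466 ± 0.249 CPM in knockout clones and 0.819 ± 0.422 CPM in wild-type clones. CEBPA had no read, FOXA2 had 3 in all clones and WWTR1, the coactivator TAZ, had 9. The 3 tested partners with the smallest p were EP300, an acetyltransferase (-0.35, SE 0.12, edgeR adjusted p = 0.216), STAT3 (0.44, SE 0.16, 0.233) and CEBPB (-0.52, SE 0.20, 0.248). Of 8 paralogs of NKX2-1, 5 had no read and none passed the threshold.

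Genes of the machinery that surfactant lipid shares with every membrane were mostly read. Of 32 genes of phosphatidylcholine synthesis and acyl remodelling, LPCAT1 apart, 2 had no read and 27 were tested, 14 above and 13 below 0, with a median of 0.11 and none past the threshold. In 6 of the 27 the unadjusted p was under 0.05, where 15.5% of all tested genes stood. MBOAT2, a lysophospholipid acyltransferase, stood at 14.7 ± 5.11 CPM in knockout clones and 26.7 ± 0.994 CPM in wild-type clones (SD, n = 4 each), at a log2 fold change of -0.86, with an SE of 0.22 and an adjusted p of 0.134 by edgeR. LCLAT1, which acts on cardiolipin, was at -0.36 (SE 0.14, edgeR adjusted p = 0.266) and PCYT1B, an enzyme of choline activation, at -0.43 (SE 0.17, 0.266). Of 10 genes of saposin and surfactant protein processing 7 were tested with a median of 0.21, the 3 with the smallest p being GRN, the progranulin gene (0.54, SE 0.26, edgeR adjusted p = 0.345), CTSD (0.44, SE 0.28, 0.492) and CTSH (0.21, SE 0.22, 0.686), both cathepsins. Of 11 other ABCA transporters 5 were tested with a median of 0.03, among them ABCA7 at -0.41 (SE 0.22, edgeR adjusted p = 0.397), ABCA1, the cholesterol exporter, at 1.05 (SE 0.67, 0.483) and ABCA5 at 0.20 (SE 0.21, 0.694).

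Knockout clones differed from wild-type clones over long stretches of some chromosomes that hold these genes. Expressed genes within 10 Mb of PAX8 had median log2 differences from the wild-type mean of -0.34, -0.37, -0.48 and -0.45 in C12, C15, S04 and S36, over 65 genes. Around SFTPB, also on chromosome 2, they were -0.40, -0.38, -0.32 and -0.08 over 45 genes. Wild-type clones stayed between -0.04 and 0.04 in both windows, but the differences are taken from their own mean, which holds them near 0. How often windows elsewhere in the genome differ as much was not tested. PAX8 itself was at a log2 fold change of -0.08 (SE 0.49), and the part of the region in the values of PAX8 and SFTPB was not tested. Around MBOAT2, on the same chromosome, the medians were -0.38, -0.58, -0.38 and -0.12. Around LPCAT1 they were 0.04, -0.08, -0.0034 and 0.34. The part of these regions in the values of MBOAT2 and LPCAT1 was not tested. Around TG S36 was lowest at -0.43, and around TSHR S04 at -0.21.

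**Figure D5:**
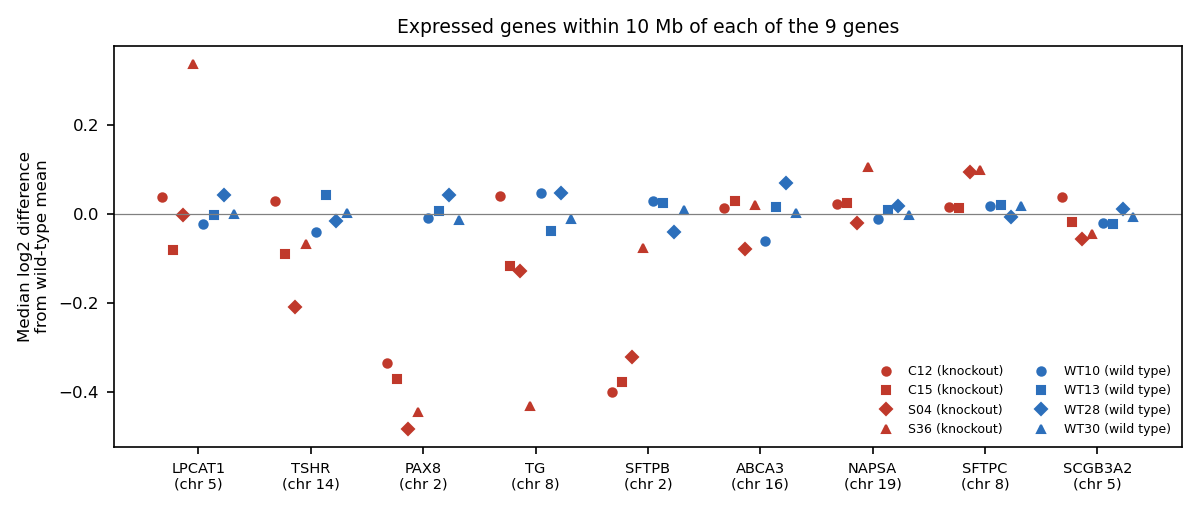
Median log2 difference from the wild-type mean, over expressed genes within 10 Mb of each of the 9 genes, by clone, with knockout clones in red left of wild-type clones in blue. All 4 knockout clones lie below the wild-type clones round PAX8 and SFTPB on chromosome 2, at -0.48 to -0.08, and S36 stands apart round LPCAT1 and TG.

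Knockout clones with C names were set against those with S names in a fit in which wild-type clones shared the estimate of spread. None of the 3 tested genes passed the threshold, where 0.358% of 14243 genes did. On simulated counts this contrast recovered only 5.43% of planted 2-fold changes, so it could miss most differences of that size. TSHR, with 5 and 3 counts in C12 and C15 and 1 and 0 in S04 and S36, gave a log2 difference of 3.19 (SE 2.11, edgeR adjusted p = 0.475). LPCAT1 gave -0.93 (SE 0.63, edgeR adjusted p = 0.487). PAX8 gave 0.0096 (SE 0.63, edgeR adjusted p = 0.997). C15 held 7 reads of all 9 genes together, so most reads of the C-named clones came from C12. Even so the few reads of C15 moved TSHR, whose log2 difference was 2.31 without C15 and 4.89 without C12.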

How the data were processed

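RNA sequencing libraries of 8 clones were compared. The authors deposited raw counts per gene in 1 table, and 0 columns belonged to other samples. FastQC, TopHat2, SAMtools, Subread and hg38 are named per the submitters' processing notes. The sources used here give no versions, counting annotation, strand setting or RNA selection.

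Counts were filtered with filterByExpr, leaving 14243 genes, scaled with TMM factors and tested in edgeR 4.0.16 under R 4.3.3 by its quasi-likelihood test, two-sided, and p was adjusted by Benjamini and Hochberg across every tested gene and called under 0.05. A fit with 3 groups gave the C and S contrast. Single genes were compared by exact permutation of log2 CPM (prior count 2). Intervals are exact Poisson or conditional binomial at 95%, and they and the floors cover counting error only. The tests were tried first on simulated counts with 200 planted changes. For knockout against wild type, 30.6% of planted 2-fold and 84.3% of planted 4-fold changes were recovered. For the C and S contrast, 5.43% and 38.0% were recovered. Of the calls, 4.13% and 6.12% were false. These shares are over all tested genes, and recovery at the low counts of LPCAT1, TSHR and PAX8 was not tested. Positions and principal transcript lengths came from GENCODE 29, in which 56983 symbols were placed, and promoters from RefSeq on GRCh38.p14. Chi-square per degree of freedom was at least 13.8 between clones of a group, and none was treated as a duplicate.

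The 9 genes and the 10 gene lists and 3 marker lists were chosen with earlier results of these data known, and the lists were written by hand from general knowledge. From each list the 3 tested genes with the smallest p were to be named, and some of these are not reported here. FOXA1, GATA6, CTSH as a lung gene, the LPCAT family, genes given as unread or nearly so, and the 10 genes that nearly all cells use were named after their values were seen. Alternatives covered scaling, filters, DESeq2 1.42.0, limma-voom (limma 3.58.1), thinning, mitochondrial genes, the C or S clones alone and leaving out each clone. Clones are named in the labels without separate cultures or dates. The p-values therefore reflect how far these libraries spread, which may in part be technical.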

Additional observations from a re-analysis of the deposited data

Results flagged for a closer look

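A clone far from its group was found in 6 of 77 groups of 4, where chance would flag about 3.85 if groups were independent. They were not, since genes picked for likeness to LPCAT1 follow its clones, so the 2 numbers cannot be compared. Values are log2 CPM unless marked as CPM. LPCAT1 was low in WT28, at -1.52, with 5 counts. This is 0.235 CPM, against 0.681 to 0.753 CPM in the other wild-type clones. DHX8 (5.07), GRN (5.92) and GUCY1B1 (6.68) were also lowest in WT28 among wild-type clones, and DHX8 and GUCY1B1 had been named for their likeness to LPCAT1. GUCY1B1 was high in S04 among knockout clones, at 7.25. SFTA3 was high in C12 among knockout clones, at 0.34, with 30 counts.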

How the results depend on the processing

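The count of the 9 genes past the threshold was 0 under all 18 other settings of the knockout comparison and all 16 of the C and S contrast. Thinning left none of the 9 testable, and a mean of at least 1 CPM left LPCAT1 alone. LPCAT1 kept a positive log2 fold change (0.69 to 1.62, adjusted p 0.0629 to 0.730) and TSHR a negative one (-4.72 to -1.59, adjusted p 0.0760 to 0.706, not given by DESeq2). Over these settings 3 to 2211 of all genes passed, the highest with S-named clones only, 581 without a filter on low counts and 521 by DESeq2, against 45 in the fit as reported. In the C and S contrast 0 to 762 passed, against 51. PAX8 had no stable sign: its knockout comparison ran from -0.29 to 0.10 with 1 clone left out. Its C and S contrast was -0.083 on library totals, -0.0024 without a filter, -0.14 by DESeq2, -0.36 by limma-voom and -6.25 to 0.33 with 1 clone left out.

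List genes past the threshold numbered 0 as reported, 5 without a filter (among them GNAS, IRX1, MBOAT2 and PRKACA), 4 by DESeq2 (among them GNAS, IRX1 and MBOAT2), 5 with S-named clones only (among them EP300, GNAS, IRX1 and PRKACA), and 0 to 2 with 1 clone left out, where GNAS and IRX1 passed without C12 and MBOAT2 without S36. The cause was not tested.

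Single values of low genes turned sign readily. With thinned libraries, from a single random draw, the log2 CPM difference was -0.025 for LPCAT1, 0 for SFTPB and ABCA3 and -0.15 for TG. With a prior count of 0.5 it was -0.089 for ABCA3. With 1 clone left out the ranges were -0.89 to 0.07 for PAX8 (0.073 without C15), -0.18 to 0.45 for TG, -0.43 to 0.34 for ABCA3, and of 1 sign for LPCAT1 (0.84 to 1.34). By exact permutation LPCAT1 had p = 0.0286 without each knockout clone and p = 0.0571 without each wild-type clone, over 35 assignments. The median around PAX8 was -0.41 within 10 Mb and -0.32 within 5 Mb.

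No paired analysis was possible because the clone names pair no knockout clone with a wild-type clone. Reads limit most of the 9 genes: 3 counts in C15 amount to 1.21 CPM, above the mean level of each gene of the 9 in wild-type clones.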
